A study of Homo sapiens with 13 samples.

Results

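Chromatin accessibility was examined at 6 human genes that carry the C/EBP name or belong to its family: CEBPA, CEBPB, CEBPD, CEBPG, CEBPZ and DDIT3. All ATAC-seq peaks that overlapped the annotated body of any of these genes, extended by 25 kb on each side, were taken from the deposited hg19 peak table. This gave 24 of 129347 peaks: 1 for CEBPA, 6 for CEBPB, 8 for CEBPD, 2 for CEBPG, 2 for CEBPZ and 5 for DDIT3. A peak that overlapped an annotated transcription start site (TSS) of the gene itself was called its TSS peak, and each gene had 1, which left 18 flanking peaks.

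T98G cells, an established human glioblastoma line, were compared in 2 states, with 3 columns of values each. G1 cells had been deprived of serum for 72 hours. M-phase cells had been starved for 48 hours and released for 36 hours into serum-containing medium with nocodazole, which blocks spindle assembly. That medium held more serum than the routine culture medium. The cells were then collected by shaking them off the dish. ATAC-seq, in which the Tn5 transposase cuts and tags open DNA, was read on a HiSeq for both phases and also on a NextSeq for M-phase, so that phase, serum state, nocodazole, harvest by shaking and instrument cannot be told apart.

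The values are read counts per peak that the authors had scaled down to the smallest library; they are called scaled counts here. Totals in peaks ran from 4191845 to 5092426 scaled counts in G1 and from 5475345 to 6000423 in M-phase. From the smallest step between values, 1 read was estimated to be worth 0.781 to 1 scaled counts in G1 and 0.412 to 0.481 in M-phase, so more reads stood behind each M-phase value and it carried less counting error. The direction of each comparison rests on the phase named in the heading of each column, since a log2 ratio that the authors placed beside them, headed as M over G1, has the opposite sign at nearly all peaks. The columns headed M were the deeper ones, and M-phase was the phase read on both instruments. Among genes chosen to mark T98G cells, VIM, CD44 and FN1 had a TSS peak and NES did not, whereas PTPRC, CD3E, ALB and CDH5, chosen for other lineages, had none.

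C/EBP proteins bind DNA as dimers held together by a leucine zipper, with an adjacent basic region that contacts the DNA. CEBPA is best known for halting proliferation and driving differentiation of fat and myeloid cells, CEBPB and CEBPD for acute-phase, inflammatory and, in glioblastoma, mesenchymal gene programmes, and CEBPG for pairing with other zipper proteins while lacking much activation capacity of its own. DDIT3, also called CHOP, is induced by endoplasmic reticulum stress through the translation factor eIF2 and its kinases, whereas CEBPZ shares the name but not the zipper and acts in the nucleolus in making the large ribosomal subunit.

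DDIT3 and CEBPB had the largest rises in accessibility at their TSS peaks in M-phase, 3.15-fold and 2.52-fold, and these peaks also covered starts of other genes. CEBPG rose 1.61-fold, a call that did not hold under every scaling tried. CEBPZ rose by a smaller amount that depended on the scaling and on single libraries, and neither CEBPD nor CEBPA passed the test. In all, 4 of the 6 TSS peaks were higher in M-phase and 0 lower at an adjusted p under 0.05 (limma on log2 of the scaled count plus 8, adjusted over the 73121 peaks tested). Among the TSS peaks of all genes, 43.2% were higher and 5.94% lower, so the count for the 6 genes was close to what promoters in general showed. With other scalings 3 (TMM), 2 (equal totals) and 2 (loess) of the 6 were higher and 0, 0 and 2 lower, beside 38.5%, 29.3% and 21.3% of all TSS peaks higher. The share of all TSS peaks lower under these scalings was not worked out. The median log2 change was 0.60 over the 6 TSS peaks and 0.37 over all 16131 TSS peaks. A closer background is the strongest TSS peak of each protein-coding gene, of which 52.3% were higher, with a median of 0.51. Nothing in the labels says that the 3 libraries of a phase came from separate cultures, so the p-values measure the spread between these libraries, which may be technical.

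**Figure D1:**
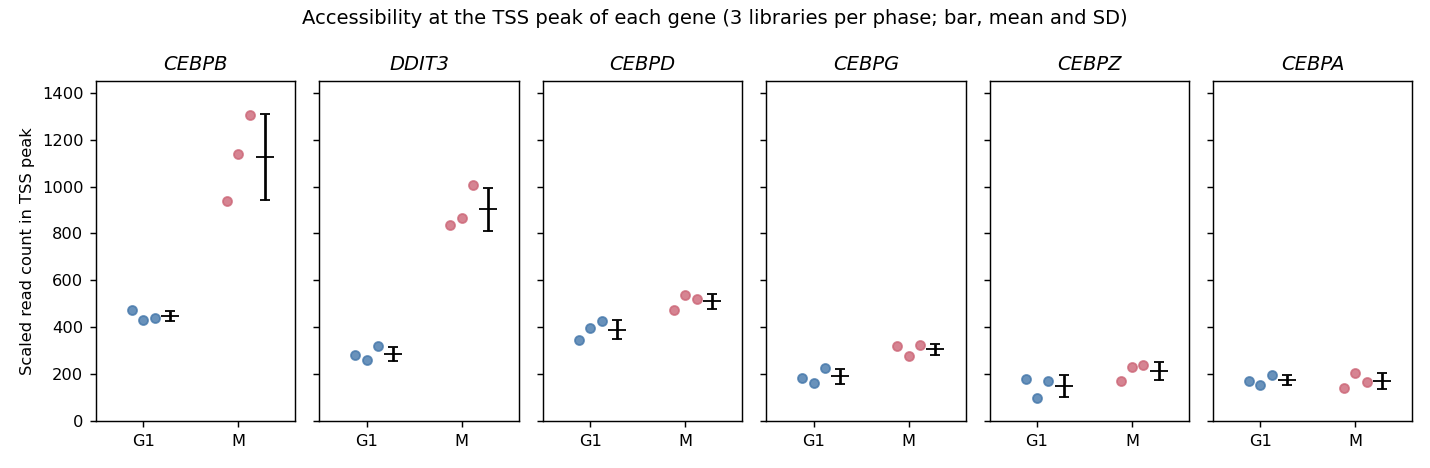
Scaled read counts (vertical axis, from 0) in the TSS peak of each gene for the 3 G1 libraries (blue) and the 3 M-phase libraries (red), with the mean and SD of each phase in black. CEBPB and DDIT3 reach 937 to 1304 and 835 to 1006 in M-phase, above all their G1 values, while the values of CEBPA overlap.

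Among the inflammatory members, the TSS peak of CEBPB (chr20:48806536-48808650, hg19) covered this intronless gene's start and that of the antisense transcript CEBPB-AS1. Its scaled counts were 473.2, 429.7 and 439 in the G1 libraries and 937.2, 1139.3 and 1304 in the M-phase libraries. Every M-phase library was well above every G1 library. The means were 447 ± 22.9 in G1 and 1127 ± 184 in M-phase (SD, n = 3 each), and the log2 change was 1.31 ± 0.15 (SE, adjusted p = 4.14e-11). It remained higher under every alternative scaling, but the change was 0.30 (adjusted p = 0.0120) when a loess trend of change on peak strength was removed. ATAC-seq reads at this peak cannot be split between CEBPB and CEBPB-AS1.

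The DNA just upstream of the CEBPB start is shown beside that of CEBPA because both promoters are CpG-rich and carry a TATA box, yet their values differed. RefSeq lists these starts for hg19, and each stretch ends at the base before the start. It is printed 5′ to 3′ on the strand of the gene, with matches to 6 short motifs in capitals. The CEBPB stretch is the plus strand of chr20:48807117-48807366, and the CEBPA stretch is the minus strand of chr19:33793441-33793690.
CEBPB promoter: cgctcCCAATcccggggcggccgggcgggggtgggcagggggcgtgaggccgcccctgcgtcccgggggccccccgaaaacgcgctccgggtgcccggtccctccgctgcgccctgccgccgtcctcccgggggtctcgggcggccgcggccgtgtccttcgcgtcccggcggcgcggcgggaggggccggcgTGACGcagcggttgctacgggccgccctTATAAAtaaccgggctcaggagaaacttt
CEBPA promoter: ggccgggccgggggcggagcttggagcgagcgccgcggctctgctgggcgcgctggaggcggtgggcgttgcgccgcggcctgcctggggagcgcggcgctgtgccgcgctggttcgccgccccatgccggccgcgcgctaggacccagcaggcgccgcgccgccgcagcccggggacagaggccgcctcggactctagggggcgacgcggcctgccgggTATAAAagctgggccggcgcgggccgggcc
In CEBPB the capitals mark, from left to right, a CCAAT box (CCAAT), the core of a cyclic AMP response element (TGACG) and a TATA box (TATAAA). The response element core began 57 bases and the TATA box 29 bases upstream of the start. In CEBPA the only match was a TATA box 30 bases upstream. CEBPB has another RefSeq start upstream, at chr20:48807120, from which nearly all of this stretch, with the marked motifs, would be transcribed.

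Searched on both strands over the 300-base promoter entries of RefSeq, from 250 bases before to 50 bases after the start, CCAAT occurred in 34.6% of 34796 entries, TGACG in 24.5% and TATAAA in 11.6%. The palindromic C/EBP site (TTGCNNCAA) occurred in 1.99%, the composite C/EBP-ATF site (TGATGNAA) in 3.63% and the AP-1 site (TGANTCA) in 7.73%. None of the promoter entries of CEBPA, CEBPB, CEBPG, CEBPZ or DDIT3 held TTGCNNCAA. Beyond the stretches printed here, the DDIT3 entries held an AP-1 match, the CEBPZ entry TGACG and the entry of the main CEBPG start CCAAT. A match describes the letters and is no evidence of binding, and the motifs were chosen after these stretches had been looked at.

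CEBPB had 5 flanking peaks. The strongest of them (chr20:48781976-48783041), 24326 bp from the CEBPB start, covered the starts of the non-coding transcripts LINC01275 and ENSG00000234698. Its scaled counts were 165, 194.5 and 189 in G1 and 268.2, 339.9 and 388.3 in M-phase. The phases did not overlap, and the peak rose by a log2 change of 0.82 ± 0.18 (SE, adjusted p = 0.000199), although under the loess alternative the change was 0.24 (adjusted p = 0.210). The peak at the start of LINC01273 gave 0.24 ± 0.22 (SE, adjusted p = 0.463). The other peaks lay between genes: 2 gave log2 changes of -0.06 and 0.44 (adjusted p = 0.907 and 0.240), and 1, with mean scaled counts of 5.23 and 2.50, was too weak to be tested.

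CEBPD, which like CEBPB responds to interleukin signals, had a TSS peak (chr8:48649750-48651770) with scaled counts of 346, 394.5 and 427 in G1 and 473.7, 537.7 and 519.7 in M-phase. All 3 M-phase libraries lay above the 3 G1 libraries, but the log2 change of 0.39 ± 0.16 missed the threshold (SE, adjusted p = 0.0652). The means were 389 ± 40.8 and 510 ± 33.0 (SD, n = 3 each). The outcome depended on the scaling and on a single library: the log2 change was 0.04 (adjusted p = 0.836) with equal totals in peaks, -0.43 (adjusted p = 0.00152) under the loess alternative, and 0.46 (adjusted p = 0.00977) without G1 replicate 3.

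The CEBPD window held the only peak called lower in M-phase among the 24. It was a narrow peak of 127 bp (chr8:48647901-48648027), 2699 bp from the CEBPD start, within an annotated exon of the neighbouring gene SPIDR, a scaffold protein of homologous recombination. Its scaled counts were 31.8, 37.5 and 46 in G1 and 16.9, 16.1 and 13 in M-phase. The phases did not overlap, and the log2 change was -0.99 ± 0.28 (SE, adjusted p = 0.00380). It stayed lower under each alternative tried, with log2 changes from -0.86 to -1.26.

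The other 6 flanking peaks of CEBPD did not pass the test or were too weak for it. The strongest, in an intron of SPIDR (chr8:48643922-48644343), had means of 53.4 ± 17.1 in G1 and 39.8 ± 5.1 in M-phase (SD, n = 3 each) and a log2 change of -0.33 ± 0.25 (SE, adjusted p = 0.355). With equal totals that change was -0.63 (adjusted p = 0.0335). The nearest to the TSS peak gave 0.52 ± 0.28 (SE, adjusted p = 0.167), and 3 further intronic peaks of SPIDR gave -0.63, -0.01 and 0.15 (adjusted p = 0.0882, 0.990 and 0.749). Across all 7 flanking peaks of CEBPD the median log2 change was -0.01.

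CEBPA, the antiproliferative member, had a single peak in its window (chr19:33792466-33794139), shared with the start of the divergent transcript CEBPA-DT. Its scaled counts were 171, 154.7 and 196 in G1 and 139.7, 206.4 and 165.5 in M-phase. The phases overlapped, with the lowest and the highest library both from M-phase. The means were 174 ± 20.8 and 171 ± 33.6 (SD, n = 3 each), and the log2 change was -0.04 ± 0.19 (SE, adjusted p = 0.915). Under the loess alternative it was -0.46 (adjusted p = 0.0216). GC content was 76.8% over this peak and 74.2% over the TSS peak of CEBPB.

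CEBPG lies on the same arm of chromosome 19 as CEBPA. Its TSS peak (chr19:33864089-33865454) had scaled counts of 181.9, 161.7 and 225 in G1 and 317.6, 278.5 and 321.9 in M-phase. Each M-phase library exceeded each G1 library. The means were 190 ± 32.3 and 306 ± 23.9 (SD, n = 3 each), and the log2 change was 0.68 ± 0.18 (SE, adjusted p = 0.00226). It was 0.34 (adjusted p = 0.0592) with equal totals and 0.11 (adjusted p = 0.613) under the loess alternative. Its only flanking peak, in an intron of PEPD, held means of 2.57 and 3.13 scaled counts and was too weak to be tested.

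An alternative RefSeq start of CEBPG lies 199 bases from the nearest GENCODE start, inside the same peak. The stretch upstream of it is shown because it was the only printed promoter with a match to the composite site bound by C/EBP-ATF dimers. It is the plus strand of chr19:33864802-33865018, downstream of the gene's main start.
CEBPG alternative promoter: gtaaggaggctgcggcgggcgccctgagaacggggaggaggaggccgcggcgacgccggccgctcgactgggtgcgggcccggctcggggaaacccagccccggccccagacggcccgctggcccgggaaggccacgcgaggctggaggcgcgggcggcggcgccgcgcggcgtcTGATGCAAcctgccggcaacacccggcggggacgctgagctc
The capitals mark that match (TGATGCAA), which began 42 bases upstream of the alternative start.

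DDIT3, the stress-induced member, had the largest change of the 24 peaks. Its TSS peak (chr12:57913462-57914751) also covered starts of ENSG00000285133 and of MBD6, which encodes a methyl-CpG-binding domain protein and is read in the opposite direction. Reads at this peak cannot be split between these genes. Scaled counts were 282.3, 259.4 and 319 in G1 and 834.6, 867.7 and 1006.2 in M-phase. The lowest M-phase library was far above the highest G1 library. The means were 287 ± 30.1 and 903 ± 91.0 (SD, n = 3 each), and the log2 change was 1.63 ± 0.16 (SE, adjusted p = 5.13e-14). It was 0.75 (adjusted p = 1.23e-08) under the loess alternative, which still called it higher.

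The upstream DNA of DDIT3 is shown because its promoter changed most and is shared with a divergent gene. It is the minus strand of chr12:57914301-57914492, cut short where transcribed sequence of MBD6 begins.
DDIT3 promoter: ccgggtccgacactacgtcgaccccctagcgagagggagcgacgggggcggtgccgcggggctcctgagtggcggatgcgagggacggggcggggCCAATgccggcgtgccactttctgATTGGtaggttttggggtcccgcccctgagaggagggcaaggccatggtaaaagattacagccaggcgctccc
The capitals mark CCAAT boxes on opposite strands, which began 97 and 73 bases upstream of the start; the second reads ATTGG on this strand. No TATA box matched in this stretch.

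A second strong peak of the DDIT3 window (chr12:57915928-57916818), 408 bp from the nearest annotated DDIT3 start, covered further starts of MBD6. Its scaled counts were 196.8, 163.3 and 208 in G1 and 525.2, 566.1 and 599.1 in M-phase. The phases were again far apart, with a 2.98-fold rise and a log2 change of 1.54 ± 0.17 (SE, adjusted p = 6.55e-12), or 0.84 (adjusted p = 5.97e-08) under the loess alternative. By contrast, the peak at the start of DCTN2, 24753 bp from DDIT3, gave a log2 change of 0.15 ± 0.20 (SE, adjusted p = 0.646). A pair of peaks in introns of MARS1, with mean scaled counts of 5.90 to 11.6, were too weak to be tested.

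CEBPZ, the nucleolar member, had a TSS peak (chr2:37457808-37459627) shared with the divergent gene NDUFAF7, an assembly factor of respiratory complex I. Only 34 bases separated the annotated transcripts, and they are shown to make clear that 1 accessible region covers the starts of both genes. They are printed on the strand of CEBPZ, the minus strand of chr2:37458740-37458773.
CEBPZ and NDUFAF7 gap: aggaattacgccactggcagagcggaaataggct
No motif searched matched within the gap.

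Scaled counts of the CEBPZ peak were 180.9, 96.1 and 171 in G1 and 169.7, 231.2 and 237.2 in M-phase. The phases overlapped, and the second G1 library stood below the rest. The means were 149 ± 46.4 and 213 ± 37.4 (SD, n = 3 each), and the log2 change of 0.52 ± 0.20 passed the threshold narrowly (SE, adjusted p = 0.0403). It was 0.25 (adjusted p = 0.393) without G1 replicate 2, 0.46 (adjusted p = 0.180) without M-phase replicate 2 and 0.44 (adjusted p = 0.190) without M-phase replicate 3. It was 0.39 (adjusted p = 0.0965) with TMM scaling, 0.18 (adjusted p = 0.435) with equal totals, 0.09 (adjusted p = 0.742) under the loess alternative and 0.55 (adjusted p = 0.0581) with a pseudocount of 1.

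The only flanking peak of CEBPZ (chr2:37423448-37424404) lay at the starts of CEBPZOS and SULT6B1, 14847 bp from the nearest annotated start of CEBPZ. Its scaled counts were 64.6, 75.8 and 82 in G1 and 131.4, 121.1 and 129.9 in M-phase. The phases did not overlap, and the log2 change was 0.73 ± 0.21 (SE, adjusted p = 0.00529), or 0.40 (adjusted p = 0.0932) with equal totals.

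Over the 18 flanking peaks, 13 passed the filter on low values, and 3 of these were higher and 1 lower in M-phase. The 3 that rose were all at starts of other genes, where 3 of 5 peaks were called higher beside the 43.2% of all TSS peaks. Of the 13 flanking peaks that covered no start, 8 were tested, and 0 were higher and 1 was lower by limma. In gene windows generally, 7.41% of peaks without a TSS were higher and 14.7% lower. The median log2 change over all 13 was 0.01, beside 0.04 over the 69521 such peaks of protein-coding genes. Over all peaks tested, of any kind, 14.3% were higher and 13.1% lower (10439 and 9548 peaks), beside 7 and 1 of the 19 tested here, of which 11 covered a start. That balance depended on the scaling, with 8875 higher and 12631 lower under TMM and 6341 and 18090 with equal totals.

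**Figure D2:**
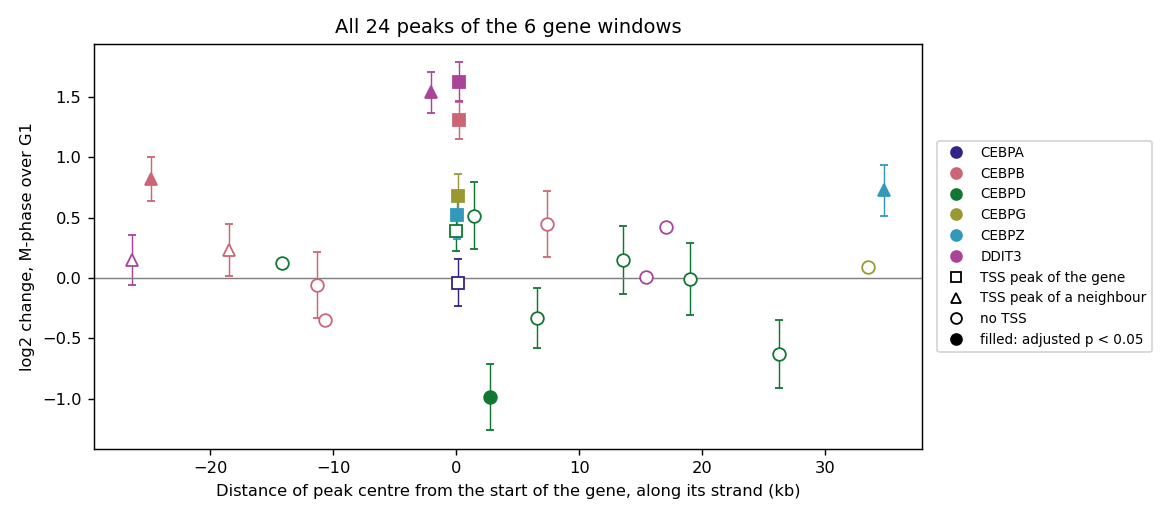
Log2 change in accessibility (M-phase over G1, vertical axis, bars SE where tested) of all 24 peaks against the distance of the peak's centre from the start of the gene along its strand (kb). The highest points, 1.63 and 1.54, belong to the DDIT3 window within a few kb of the start, and the lowest, -0.99, to the CEBPD window.

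The TSS peaks also differed in level. Per kilobase of peak, mean scaled counts in G1 ran in the order DDIT3 (222), CEBPB (211), CEBPD (193), CEBPG (139), CEBPA (104) and CEBPZ (82.1). In M-phase the order was DDIT3 (700), CEBPB (533), CEBPD (253), CEBPG (224), CEBPZ (117) and CEBPA (102). These values are levels per length and were not tested between genes. Ratios of whole peaks within each library, which do not depend on scaling by a constant, were compared between phases for the 15 pairs of genes. They do keep any trend of change with peak strength, which the loess alternative removes.

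Each gene's peak enters several of the 15 pairs, so the pairs are not independent of one another. How often pairs of other TSS peaks separate between phases was not worked out, so the count below has no background. For 12 of the 15 pairs the ratios of the 3 libraries of each phase did not overlap. With 3 libraries against 3 an exact two-sided permutation test cannot give a p below 0.1, so these pairs had p = 0.1 (0.125 adjusted over the 15) and none could pass a threshold of 0.05. The mean ratio of CEBPA to CEBPB was 0.387 in G1 and 0.151 in M-phase, and that of CEBPA to DDIT3 was 0.606 and 0.187. The ratio of CEBPB to DDIT3, the members with the largest changes, was 1.56 and 1.24. The pairs that overlapped were CEBPD with CEBPG, CEBPD with CEBPZ, and CEBPG with CEBPZ, with log2 differences of -0.31, -0.15 and 0.15 (exact permutation p = 0.3, 0.8 and 0.6).

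Set among the 15500 TSS peaks tested, the change at DDIT3 was larger than at 99.0% of them and that at CEBPB larger than at 94.9%. CEBPG, CEBPZ and CEBPD stood at 67.9%, 58.1% and 50.1%, and CEBPA at 24.9%. The CEBPB and DDIT3 peaks were also among the strongest, with a mean level above 98.4% and 96.1% of the TSS peaks. Under the loess alternative, which removes a trend with strength, DDIT3 stood at 92.9%, CEBPB at 69.5% and CEBPA at 16.0%.

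**Figure D3:**
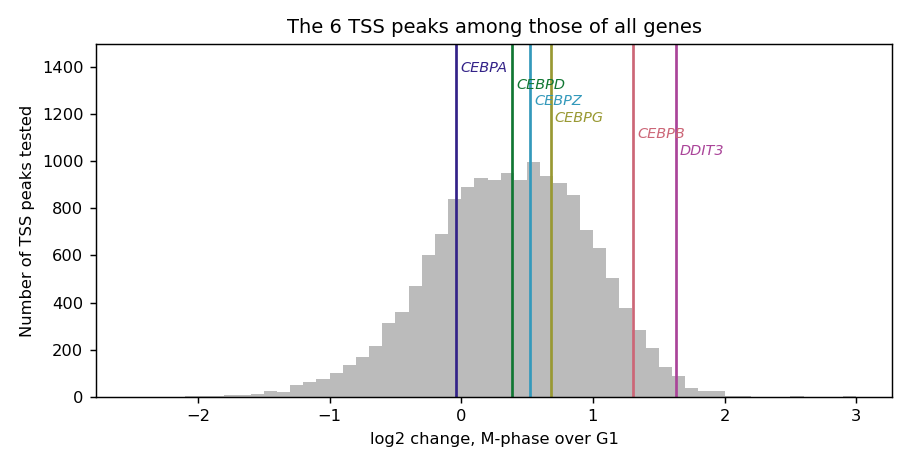
Number of TSS peaks tested (vertical axis) by log2 change in accessibility, M-phase over G1, in bins of 0.1, with the TSS peaks of the 6 genes as coloured lines. DDIT3 at 1.63 and CEBPB at 1.31 lie in the upper tail, and CEBPA at -0.04 lies to the left, with 24.9% of the TSS peaks below it.

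For each member, the 3 promoters of other protein-coding genes with the most similar pattern were sought by the Euclidean distance over the 6 libraries of centred log2 values, among 10305 candidates. RIPK4, PITPNB and FIBP were nearest to DDIT3 (distances 0.0756 to 0.107 log2 units), and PTMA, RRP1 and NPC1 to CEBPB (0.107 to 0.119). MYB, TOR1AIP2 and DCBLD1 were nearest to CEBPA (0.0827 to 0.160). SPTBN1, PRXL2B and MALSU1 were nearest to CEBPD (0.0806 to 0.0894), PDXP, SLC17A5 and PPFIBP1 to CEBPG (0.0649 to 0.0964), and TRMT61A, GGCX and DYNC1LI1 to CEBPZ (0.190 to 0.211). Such nearness depends largely on a like change between phases: RIPK4, PITPNB and FIBP changed by 1.67, 1.68 and 1.66 in log2, beside 1.63 at DDIT3. The nearest distances of other promoters were not worked out, and shared regulation was not tested.

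The promoters of genes that work with the members were then read from 4 lists, using the strongest TSS peak of each gene. As background, 52.3% of protein-coding genes with a tested TSS peak were higher and 4.32% lower in M-phase, with a median log2 change of 0.51 over 13391 genes. Of the 20 genes of the stress response around DDIT3, all had a TSS peak and were tested, and 16 were higher and 0 lower (median 0.84). PPP1R15A, the phosphatase subunit that reverses eIF2 phosphorylation, had scaled counts of 170, 138.3 and 182 in G1 and 593.6, 684.4 and 739.6 in M-phase. The phases were far apart, and its log2 change was 1.99 ± 0.17 (SE, adjusted p = 1.74e-16).

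HSPA5, the chaperone BiP of the endoplasmic reticulum, rose from 179 ± 19.5 to 633 ± 17.3 (SD, n = 3 each), a log2 change of 1.78 ± 0.17 (SE, adjusted p = 1.29e-14). ERN1, the stress sensor IRE1, rose by 1.46 ± 0.17 (SE, adjusted p = 3.96e-11). The members that were not called were ASNS (-0.16), EIF2AK2 (0.12), DNAJB9 (0.16) and EIF2AK3 (0.20), in log2 change. EIF2AK3, the eIF2 kinase PERK, had 592.5, 435.2 and 752 scaled counts in G1 and 559.8, 707.9 and 751.1 in M-phase, which overlapped throughout. With other scalings 15 (TMM), 14 (equal totals) and 7 (loess) of the 20 were higher and 0, 1 and 3 lower, beside 47.2%, 36.4% and 23.9% higher in the background. The background share lower under these scalings was not worked out.

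Of the 14 zipper relatives and dimer partners, 12 had a TSS peak and were tested, and 6 were higher and 0 lower (median 0.62). ATF4, which is translated under stress and activates DDIT3, had scaled counts of 392.7, 290.6 and 354 in G1 and 1030.7, 1015.3 and 1174.1 in M-phase. Its phases did not overlap, and its log2 change was 1.62 ± 0.16 (SE, adjusted p = 2.57e-14). NFIL3 rose by 1.41 ± 0.18 (SE, adjusted p = 3.11e-10) and ATF5, whose peak also covers starts of NUP62 and IL4I1, by 1.21 ± 0.18 (SE, adjusted p = 3.11e-08). CEBPE, the granulocyte-specific member of the family, and BATF had no TSS peak. With other scalings 6 (TMM), 6 (equal totals) and 4 (loess) of the 12 were higher and 0, 1 and 2 lower. The background had 47.2%, 36.4% and 23.9% higher, and its share lower was not worked out.

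Of the 19 regulators and targets of CEBPA and CEBPB, 15 had a TSS peak and 13 were tested, with 7 higher and 1 lower (median 0.15 over the 15). Over the 13 tested alone the median was 0.69, beside 0.52 over the protein-coding genes tested. STAT3, which acts with CEBPB in the mesenchymal programme of glioblastoma, rose from 271 ± 46.4 to 680 ± 66.4 (SD, n = 3 each), a log2 change of 1.31 ± 0.17 (SE, adjusted p = 5.57e-10). RUNX1, an activator of CEBPA in myeloid cells, rose by 1.75 ± 0.15 (SE, adjusted p = 4.79e-16), and TRIB2, which promotes the breakdown of CEBPA protein, by 1.26 ± 0.17 (SE, adjusted p = 7.96e-09). TNFAIP6, an inflammation-induced gene, fell: its scaled counts were 30.8, 21.9 and 30 in G1 and 2.1, 15.2 and 16.8 in M-phase, with a log2 change of -0.97 ± 0.30 (SE, adjusted p = 0.00864). IL1B, LCN2, SERPINA3 and HP had no TSS peak. With other scalings 7 (TMM), 7 (equal totals) and 4 (loess) of the 13 were higher and 1, 2 and 2 lower. Beside these stand 47.2%, 36.4% and 23.9% higher in the background, whose share lower was not worked out.

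All 13 nucleolar genes listed beside CEBPZ had a TSS peak and were tested, and 10 were higher and 0 lower (median 0.77). FBL, the fibrillarin methyltransferase, rose from 82.5 ± 21.6 to 187 ± 30.3 (SD, n = 3 each), a log2 change of 1.13 ± 0.21 (SE, adjusted p = 9.24e-06). BOP1, whose peak also covers the start of HSF1, rose by 0.90 ± 0.17 (SE, adjusted p = 1.69e-05) and DKC1 by 0.86 ± 0.18 (SE, adjusted p = 0.000115). The 3 not called were NOC4L (0.29), NOP58 (0.37) and NOC2L (0.40), in log2 change. With other scalings 10 (TMM), 7 (equal totals) and 4 (loess) were higher and none lower, beside 47.2%, 36.4% and 23.9% higher in the background.

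**Figure D4:**
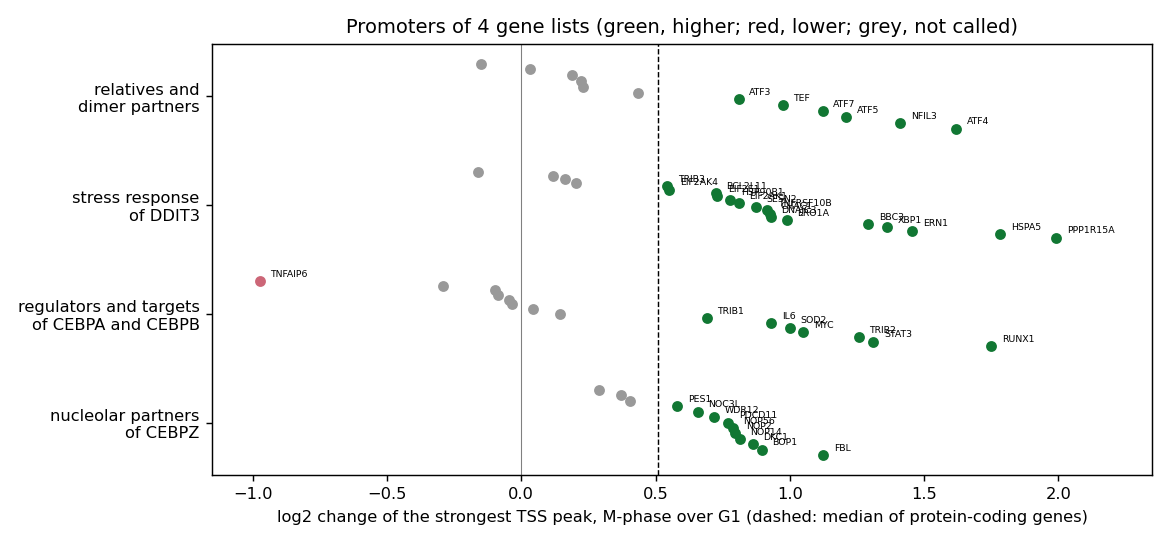
Log2 change in accessibility (M-phase over G1, horizontal axis) of the strongest TSS peak of each gene in 4 lists, coloured green where higher and red where lower at an adjusted p under 0.05, with the median of protein-coding genes (0.51) as a dashed line. PPP1R15A at 1.99 is the highest point and TNFAIP6 at -0.97 the lowest.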

How the data were processed

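ATAC-seq of T98G cells in G1 and M-phase was analysed from a table of peaks by libraries; the sequenced chromatin fractions and inputs of the same series were not used here. Per the study's methods, the authors removed adapters with cutadapt, mapped reads to hg19 with Rbowtie in QuasR (up to 3 locations a read), removed mitochondrial reads with SAMtools, ran MACS2 in broad mode with the replicates of a phase pooled, and then joined the peaks of both phases. Tool versions and any Tn5 shift are not given in the sources used here. The deposited values are a coverage signal: read counts in peaks, scaled by the authors to the smallest library. Each M-phase column stands for runs on 2 instruments, and how they were joined is not given in the sources used here. The table also holds the authors' log2 ratio and its SD, which were not used; the sign of that ratio is opposite to the columns' M over G1. Reads may map to several places, so copies of a sequence can share reads.

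Peaks reaching the equivalent of 10 scaled counts in 3 libraries, and a total of 15, were tested (73121 of 129347). limma 3.58.1 (R 4.3.3) with a trended variance was run on log2(scaled count + 8), and p-values were adjusted by the Benjamini-Hochberg method over all peaks tested; fold changes on this scale understate changes of weak peaks. No rescaling was added, so differences in total signal between phases stay in the values. TMM, equal totals, loess, filters, a pseudocount of 1, windows of 10 and 50 kb and leaving out each library were tried as alternatives. The method was also run on simulated counts, with equal depth in all libraries and no trend of change with peak strength. That run cannot tell which scaling is right. Depth is estimated, so no counting intervals were given. Starts and genes came from GENCODE release 44 lifted to GRCh37, and promoter sequences from RefSeq (hg19 coordinates); 5 of the 6 members had an entry. Named peaks are all TSS peaks, flanking peaks past the threshold and the strongest flanking peak of each member; other peaks were named after their values were seen, as were uncalled list members and EIF2AK3. Named list genes are up to 3 with the largest rise and fall past the threshold. The members and gene lists were chosen with earlier results of these data known. Same-numbered libraries of the phases did not deviate together. Some of the cell type markers are not reported here.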

Additional observations from a re-analysis of the deposited data

How the results depend on the processing

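Over all peaks tested the median log2 change was 0.02 as deposited, -0.08 with TMM, -0.24 with equal totals and 0.03 with the loess trend removed. Member peaks higher in M-phase numbered 7 as deposited, 4 with equal totals and 4 with loess, and those lower numbered 1, 3 and 3. Over all 73121 peaks tested, 10439, 6341 and 7892 were higher and 9548, 18090 and 9765 lower, so the calls shifted with the scaling there too. The median log2 change of the 6 TSS peaks was 0.60 as deposited, 0.26 with equal totals and 0.10 with loess, and that of the flanking peaks 0.14, -0.10 and 0.29. With windows of 10 and 50 kb the flanking median was 0.48 and 0.017. Leaving out each library in turn gave 6 to 8 peaks higher, 1 lower in every case, a TSS median of 0.49 to 0.72 and a flanking median of 0.028 to 0.19, the lowest without G1 replicate 3. CEBPD reversed at its TSS peak under loess (-0.43), and CEBPA ranged from -0.18 to 0.091 at its TSS peak as libraries were left out, changing sign without G1 replicate 3 (0.048) and without M-phase replicate 1 (0.091). The TSS peaks of CEBPB and DDIT3, the MBD6 peak and the peak in SPIDR kept their calls under each alternative. The cause of these shifts was not tested.

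The replicate numbers were tried as a block, which left 7 peaks higher and 1 lower and changed no call. Same-numbered libraries correlated in their deviations at 0.006, -0.01 and 0.03, so no effect shared between them was seen. This cannot show whether they were prepared together. Of all peaks, 10881 were higher and 10063 lower with the block, against 10439 and 9548 without. With at least 10 scaled counts in every library, 9567 of 43658 peaks were higher and 5001 lower. A planned count test (edgeR) was not run, because whole reads were not recovered for every library. Depth limits the weak peaks: 5 of the 24 were left untested by the filter on low values.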
